A study of Mus musculus with 6 samples.

Results

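Mast cells are followed here through 10 genes, Cpa3, Mcpt4, Cma1, Tpsb2, Tpsab1, Ms4a2, Fcer1a, Mrgprb1, Mrgprb2 and Hdc, which encode their granule proteases, their receptors and the enzyme that makes histamine. The genes were taken by symbol from a table of 25894 Ensembl gene identifiers, and all 10 were found, 1 identifier each. RNA was sequenced from inguinal white adipose tissue, the subcutaneous fat of the groin, of 15-week-old female C57BL/6N mice. Sleep of 3 mice was fragmented for 8 weeks, after which they had 2 weeks of recovery sleep (called SF-SR 1 to 3), and 3 mice were controls (control 1 to 3), for which the labels give no treatment beyond the word control. All 6 mice were fasted for 10 h before collection, and each library came from 1 mouse. The comparison asks which transcripts of the fat depot differed from controls after the recovery period.

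Mast cells are long-lived tissue cells that mature from bone marrow progenitors under stem cell factor, the ligand of the receptor Kit, and settle around vessels, nerves and connective tissue, white fat included. Their granules hold histamine and proteases bound to the proteoglycan serglycin, and the proteases differ between connective tissue mast cells (chymases, tryptases and carboxypeptidase A3) and mucosal mast cells. Granules are released when antigen cross-links IgE on the high-affinity receptor Fc epsilon RI, or when basic peptides and drugs engage Mrgpr receptors, without IgE. In whole tissue, fewer mast cells and less RNA per mast cell cannot be told apart.

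Mast cell gene levels overlapped between SF-SR and control mice for 8 of the 10 genes, and no gene passed the threshold. Mrgprb1, a receptor gene, and Ms4a2, the beta chain of the IgE receptor, were the ones with all SF-SR mice below all controls, as were 3.58% of all genes tested, and none of the 10 had all SF-SR mice above all controls, as did 5.02%. By limma on log2(value + 1) with Benjamini-Hochberg adjustment over 22290 genes at an FDR of 0.05, 0 of the 10 were called, against a background of 0.0% of genes. All 10 passed the filter, a mean normalised read count of at least 1. edgeR and DESeq2 on recovered reads also called 0 of the 10 and 0.0% of genes, and limma-voom with quality weights called 1, Mrgprb1 (adjusted p = 0.0473), where 6.34% of 16141 genes were called. At an unadjusted p under 0.05 limma gave 1 of the 10, Mrgprb1, against 5.39% of all genes. In the SF-SR mice 6 of the 10 were lower and 4 higher, where 48.4% of all genes were lower. The median log2 difference of the 10 was -0.45, beside 0.02 over all genes tested. Without control 1 it was -0.28, and with controls 2 and 3 left out it was -0.63.

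**Figure D1:**
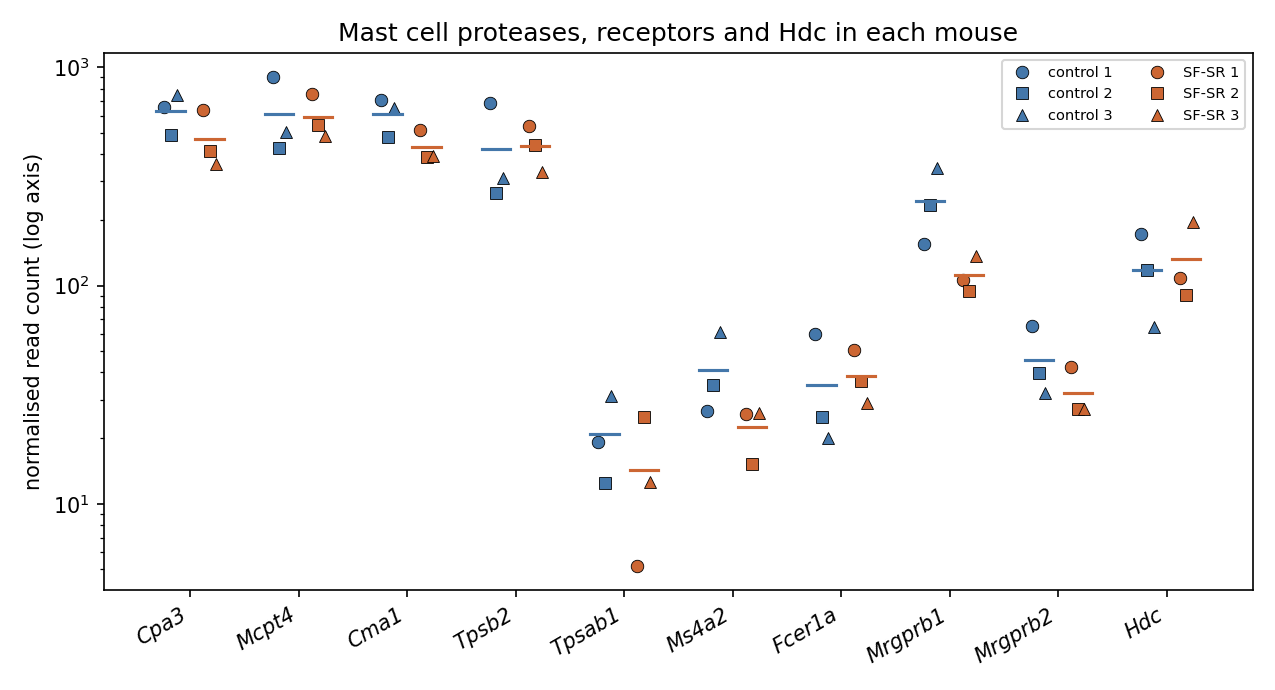
Normalised read counts (log axis) of the 10 genes in each of the 6 mice, with controls in blue and SF-SR mice in orange; marker shapes give the mouse number and bars the group mean. All SF-SR mice lie below all controls for Mrgprb1 and, by a narrow margin, Ms4a2, and the groups overlap for the other 8 genes.

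The libraries held 15610201 to 19703569 recovered reads. The 8 adipocyte markers, among them Adipoq and Plin1, summed to between 135566 and 534811 normalised counts per library, so the labelled tissue was represented in each; the sums were lowest in controls 2 and 3, at 135566 and 168403. Other tissue was present in unequal amounts. The sum of 8 B and plasma cell markers was 31910 in SF-SR 2, 79415 in control 2 and 17621 in control 3, and between 1834 and 3450 in the other mice. Lymph node stroma markers were high in the same 3 mice, at 3774 to 8107 against 75.8 to 662. Mammary epithelium markers summed to 19206 and 23751 in controls 2 and 3 and to between 31811 and 49706 in the other mice, and neutrophil markers to 8809 and 1152 against 65.9 to 671. Skeletal muscle markers were highest in SF-SR 1, at 73615. Skin keratinocyte markers, of a tissue rich in mast cells, ranged from 861 to 2674 in SF-SR mice and from 742 to 2207 in controls. Among them Krt1, Lor and Dsg3 had at most 3.61, 7.59 and 6.07 normalised counts, so the sums came from the other genes of the list. Dsc3 was at 248 in SF-SR 2, 529 in control 2 and 165 in control 3, and at most 1.81 in the other mice. Whether this RNA came from skin was not tested. The part of these tissues in the mast cell values was not tested.

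The abundant granule proteases were measured from 235 to 844 reads per library. Compared per kb of exon, Mcpt4 had the highest level, at 544 ± 165 (SD, n = 6) normalised counts per kb, followed by Cma1 at 480 ± 122, Cpa3 at 363 ± 100 and Tpsb2 at 270 ± 101. Mcpt4 was above Cma1 in 4 of the 6 libraries, so the order of this pair was not fixed, whereas Cma1 was above Cpa3 in 6 and Cpa3 above Tpsb2 in 5. The next level was far lower, with Mrgprb1 at 42.7 ± 22.9 per kb and Fcer1a at 36.9 ± 15.6, a pair in which either was higher in 3 libraries. Hdc followed at 19.6 ± 7.80, Mrgprb2 at 18.8 ± 6.85, Ms4a2 at 11.3 ± 5.62 and Tpsab1 at 8.41 ± 4.52 per kb. By exon length Hdc lay above Mrgprb2 in 2 of 6 libraries, so that pair too was unordered. The place of Hdc depended on the length used, 6389 bases of exon against 4518 in its longest transcript. Per kb of longest transcript its mean was 27.7, above the 18.8 of Mrgprb2. These lengths come from the GENCODE M21 annotation, which need not be the one used for counting.

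Cpa3 encodes carboxypeptidase A3, a protease of mast cell granules that trims C-terminal residues from peptides. Its normalised read counts were 638, 412 and 361 in SF-SR 1 to 3 and 661, 489 and 744 in control 1 to 3. SF-SR 1 lay among the controls and the other SF-SR mice lay below all of them. The group means were 470 ± 147 and 631 ± 130 (SD, n = 3 each), a log2 difference of -0.45 (SE 0.30, limma adjusted p = 0.700). It was -0.69 without SF-SR 1 and -0.28 without SF-SR 3.

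Cma1 encodes mast cell protease 5, stored with carboxypeptidase A3 in connective tissue mast cells. Its counts were 516, 389 and 395 in SF-SR 1 to 3 and 710, 478 and 652 in control 1 to 3. The groups overlapped only through SF-SR 1, which was above control 2. The log2 difference was -0.49 (SE 0.27, limma adjusted p = 0.697). When each library's dependence on the GC content and length of transcripts was subtracted (called trends removed), it was -0.78 (SE 0.28, unadjusted p = 0.0203), and 0 of the 10 genes were called in that fit either.

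Mcpt4 encodes mast cell protease 4, the mouse chymase that cleaves after aromatic residues. Counts of 752, 545 and 485 in SF-SR 1 to 3 stood beside 900, 427 and 507 in control 1 to 3. Control 1 was the highest and control 2 the lowest of all 6, so the controls enclosed the SF-SR mice. The log2 difference was 0.01 (SE 0.33, limma adjusted p = 0.994), and it was 0.33 without control 1 and -0.21 without control 2.

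Tpsb2 encodes mast cell protease 6, a tryptase that is active as a tetramer with heparin. It had counts of 540, 441 and 332 in SF-SR 1 to 3 and 690, 266 and 311 in control 1 to 3. Its control values spread more than those of Cpa3 and Cma1, and again enclosed the SF-SR mice. This gave a log2 difference of 0.16 (SE 0.39, limma adjusted p = 0.907), at 0.58 without control 1 and -0.39 with trends removed.

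Tpsab1 encodes the related tryptase mast cell protease 7, and RefSeq lists it in C57BL/6J as a transcribed pseudogene. A splice defect in this strain family is known to prevent the protein from being made. Only 5, 33 and 14 reads were recovered in SF-SR 1 to 3 and 18, 11 and 28 in control 1 to 3, and Tpsb2 had 9.96 to 104 times the normalised count of Tpsab1 within a library. In every mouse the transcript was thus detected at a small share of the Tpsb2 level. Its log2 difference was -0.66 (SE 0.76, limma adjusted p = 0.786), and it was -0.13 without SF-SR 1, the library with the fewest reads, -1.16 without SF-SR 2, -0.34 without control 3 and -1.07 with trends removed.

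**Figure D2:**
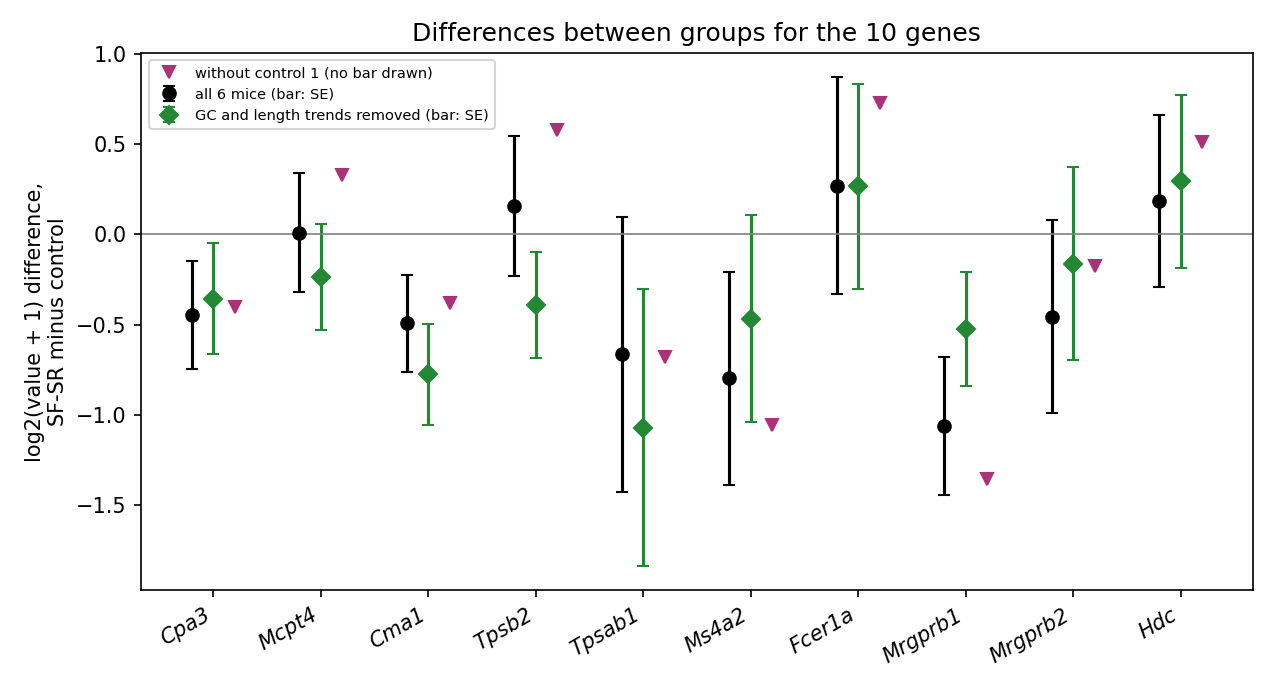
Log2 differences (SF-SR minus control) of the 10 genes with all 6 mice (black circles, bars ± SE), after subtraction of GC content and length trends (green diamonds, bars ± SE) and without control 1 (purple triangles). Mrgprb1 has the most negative value with all 6 mice, at -1.06, and Mcpt4 and Tpsb2 change sign between the settings.

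The chymases lie in a cluster of protease genes. In RefSeq the genes ordered from Cma1 to Mcpt4 are Cma1, Mcpt-ps1, Cma2, Gm5801, Mcpt1, Mcpt2, Mcpt9 and Mcpt4. Mcpt1 and Mcpt2 encode proteases of mucosal mast cells. Mcpt2 had 0 reads in all SF-SR libraries, which allows up to 3 reads in each, and 4, 3 and 3 reads in control 1 to 3. At so few reads no fold is given. Cma2 was listed at a mean of 1.46 normalised counts, Mcpt-ps1 at 3.45 and Gm5801 at 4.93. Among the genes of this stretch that were measured, the outermost, Cma1 and Mcpt4, had the highest means, 523 and 603. No gene identifier in the data matched Mcpt1 or Mcpt9, so they have no values here.

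Exact stretches of 50 bases shared with other annotated transcripts were few. Sharing of reads through inexact matches was not tested. Of all windows of 50 bases in the Mcpt4 transcript, 5.48% also occur in Cma2 or Mcpt9, and 5.38% of those in Cma1 occur in Gm48934. For Ms4a2 the share was 2.69%, all with Ms4a4b. Tpsb2 and Tpsab1 shared no such window with each other or with another gene, and neither did Cpa3, Fcer1a, Mrgprb1, Mrgprb2 or Hdc. Aligned end to end, the Mcpt4 and Cma1 transcripts were identical at 66.1% of aligned bases, those of Tpsb2 and Tpsab1 at 64.9%, and those of Mrgprb1 and Mrgprb2 at 73.3%.

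The stretch of 250 bases before the start of each gene was read from the RefSeq promoter table of GRCm38.p6, which matched 8 of the 10 genes. Tpsb2 and Tpsab1 were the others. Mast cell genes are known targets of GATA factors, and the letters GATAA, searched on both strands (TTATC on the other), occurred in 6 of the 8 windows, those of Cpa3, Mcpt4, Cma1, Ms4a2, Fcer1a and Mrgprb2. They occurred in 22.6% of 32851 promoter windows of the same length. This share, and those for other motifs below, were not matched for base composition. The 8 windows had GC contents of 37.2% to 51.2%, and the part of composition in these counts was not tested. The windows of Cpa3, Mcpt4 and Cma1, of Ms4a2 with 3 matches and of Mrgprb1 with none are printed 5′ to 3′. Other letters that GATA factors may bind were not searched, so no match means only that GATAA was absent. For Ms4a2 alone, the bases checked after the RefSeq start were not found in the longest coding GENCODE transcript, so its window may not adjoin that transcript. Capitals mark GATAA or TTATC.
Cpa3 (chr3:20242182-20242431, minus strand): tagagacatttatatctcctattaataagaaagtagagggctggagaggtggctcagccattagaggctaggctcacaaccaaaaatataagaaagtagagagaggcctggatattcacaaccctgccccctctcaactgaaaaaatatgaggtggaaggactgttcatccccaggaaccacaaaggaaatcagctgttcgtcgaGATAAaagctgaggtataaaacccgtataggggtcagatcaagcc
Mcpt4 (chr14:56062311-56062560, minus strand): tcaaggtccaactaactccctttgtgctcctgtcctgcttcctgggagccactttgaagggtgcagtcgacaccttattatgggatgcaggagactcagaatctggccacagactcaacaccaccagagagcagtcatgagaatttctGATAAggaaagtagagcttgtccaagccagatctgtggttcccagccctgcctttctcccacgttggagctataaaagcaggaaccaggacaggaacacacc
Cma1 (chr14:55944676-55944925, minus strand): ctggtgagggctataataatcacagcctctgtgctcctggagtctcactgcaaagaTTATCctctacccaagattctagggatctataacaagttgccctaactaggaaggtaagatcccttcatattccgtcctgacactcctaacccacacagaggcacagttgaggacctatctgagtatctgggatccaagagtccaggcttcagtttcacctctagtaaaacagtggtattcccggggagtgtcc
Ms4a2 (chr19:11623720-11623969, minus strand): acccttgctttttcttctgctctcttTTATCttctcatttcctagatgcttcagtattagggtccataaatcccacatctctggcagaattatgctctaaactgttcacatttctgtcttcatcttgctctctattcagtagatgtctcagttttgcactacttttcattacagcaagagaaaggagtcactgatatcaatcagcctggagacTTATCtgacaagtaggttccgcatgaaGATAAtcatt
Mrgprb1 (chr7:48456343-48456592, minus strand): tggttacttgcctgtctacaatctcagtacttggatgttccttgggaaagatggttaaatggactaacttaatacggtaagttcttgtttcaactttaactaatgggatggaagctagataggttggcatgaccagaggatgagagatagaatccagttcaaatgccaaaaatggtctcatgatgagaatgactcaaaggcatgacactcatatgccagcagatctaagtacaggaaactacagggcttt
The first base of the match lay at -45 in Cpa3, at -102 in Mcpt4 and at -194 in Cma1, counted from the start of the gene. A TATAAA box on either strand was found in 3 of the 8 windows, those of Cpa3, Mcpt4 and Fcer1a, against 12.4% of all windows. An E-box, CANNTG, was found in 6 of the 8 against 66.2%. CATGTG on either strand, a form of E-box bound by MITF and counted among the E-boxes too, was found in 1, that of Fcer1a, against 12.3%. The Mcpt4 and Cma1 windows were identical at 46.5% of aligned bases, close to the 44.7% of the unrelated pair Cpa3 and Mcpt4. These matches describe letters in a window and show no binding.

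The receptors were measured at lower depth, from 18 to 311 reads. Ms4a2 encodes the beta chain of Fc epsilon RI, which amplifies the signal from IgE. Its normalised counts were 25.9, 15.2 and 26.2 in SF-SR 1 to 3 and 26.6, 35.0 and 61.3 in control 1 to 3. All SF-SR mice were below all controls, but the gap between SF-SR 3 and control 1 was under 1 normalised count, from 29 and 25 reads. SF-SR minus control, this was -0.80 on the log2 scale (SE 0.59, limma adjusted p = 0.710). It was -0.47 without control 3, the highest library.

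Fcer1a encodes the alpha chain of the same receptor, the subunit that binds IgE. Its counts of 50.8, 36.4 and 28.9 in SF-SR 1 to 3 lay between those of control 1, at 59.7, and those of controls 2 and 3, at 24.9 and 20.1. The groups differed by 0.27 on the log2 scale (SE 0.60, limma adjusted p = 0.895), 0.73 without control 1 and -0.034 without control 3. The chains of this receptor thus did not share an order over the mice, and control 3 was the highest library for Ms4a2 and the lowest for Fcer1a.

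Mrgprb1 encodes a receptor of the Mrgpr family that is found on mouse connective tissue mast cells. It had 106, 94.8 and 136 normalised counts in SF-SR 1 to 3 and 156, 234 and 346 in control 1 to 3. All SF-SR mice lay below all controls. The means were 112 ± 21.5 and 245 ± 95.9 (SD, n = 3 each), a log2 difference of -1.06 (SE 0.38), which did not pass (limma adjusted p = 0.697, unadjusted p = 0.0205). It did not pass without control 1 either, at -1.35 (adjusted p = 0.0635), where 3.79% of genes were called. With trends removed it was -0.52 (SE 0.32), and with controls 2 and 3 left out -0.48. Mrgprb1 has a GC content of 37.0% over its transcript, the lowest of the 10.

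Mrgprb2 encodes the mouse receptor for compound 48/80 and other basic secretagogues, the counterpart of human MRGPRX2. It had 42.5, 27.3 and 27.1 normalised counts in SF-SR 1 to 3 and 65.0, 39.6 and 32.3 in control 1 to 3, from 29 to 61 reads. The groups overlapped through SF-SR 1, which exceeded controls 2 and 3. Between groups the log2 difference was -0.46 (SE 0.54, limma adjusted p = 0.792). It was -0.17 without control 1, -0.67 without control 3 and -0.16 with trends removed. In RefSeq 1 gene lies between Mrgprb1 and Mrgprb2, listed as Mrgprx2 and named here because of its place. It had 21.8, 26.5 and 39.7 counts in SF-SR 1 to 3 and 41.6, 57.6 and 68.0 in control 1 to 3, a log2 difference of -0.92 (SE 0.52, limma adjusted p = 0.697). As for Mrgprb1, every SF-SR mouse was below every control and control 3 was the highest. The margin between SF-SR 3 and control 1 was narrow for Mrgprx2. With trends removed its difference was -0.38 (SE 0.47).

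Hdc encodes histidine decarboxylase, which makes histamine from histidine. Counts were 109, 91.0 and 196 in SF-SR 1 to 3 and 173, 118 and 64.6 in control 1 to 3. The highest value was in SF-SR 3 and the lowest in control 3, so the groups overlapped over nearly their whole range. The groups differed by 0.19 on the log2 scale (SE 0.48, limma adjusted p = 0.911), and it was -0.14 without SF-SR 3, -0.19 without control 3 and -0.47 with controls 2 and 3 left out.

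Where both genes of a pair come from mast cells, their ratio within a mouse does not depend on how many mast cells the sample held. Mcpt4 and Cma1 are alike in base composition and length, with GC contents of 49.1% and 50% and transcripts of 1108 and 1090 bases. Their ratio of normalised counts was 1.46, 1.40 and 1.23 in SF-SR 1 to 3 and 1.27, 0.894 and 0.778 in control 1 to 3. Controls 2 and 3 were low, and control 1 lay among the SF-SR mice. After removal of GC and length trends the values were 1.47, 1.44 and 1.23 against 1.28, 0.874 and 0.760, so the order did not change. No test was made of these ratios, and with 3 against 3 mice an exact permutation test could not go below a two-sided p of 0.10.

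The ratio of Cpa3 to Cma1 was 1.24, 1.06 and 0.915 in SF-SR 1 to 3 and 0.931, 1.02 and 1.14 in control 1 to 3, and with trends removed 1.38, 1.33 and 0.962 against 0.969, 0.844 and 0.902. Controls 2 and 3 were the lowest only after that removal. Tpsb2 to Cpa3 had 0.847, 1.07 and 0.920 against 1.04, 0.543 and 0.418, again low in controls 2 and 3 alone. The members of that pair differ in GC content, 56.9% and 41.3%. With trends removed it was 0.708, 0.745 and 0.816 against 0.945, 0.784 and 0.622, so control 2 then lay among the SF-SR mice and control 3 stayed lowest. Fcer1a to Ms4a2 had 1.96, 2.40 and 1.10 against 2.24, 0.710 and 0.327, and with trends removed 1.65, 1.96 and 1.07 against 2.07, 0.827 and 0.440. Mrgprb1 to Mrgprb2 had 2.49, 3.47 and 5.03 against 2.39, 5.91 and 10.7. Before trends were removed, controls 2 and 3 were lowest in Mcpt4 to Cma1, Tpsb2 to Cpa3 and Fcer1a to Ms4a2. Control 1 lay among the SF-SR mice in these. In Mrgprb1 to Mrgprb2, controls 2 and 3 were highest and control 1 lowest, so the controls enclosed the SF-SR mice. Cpa3 to Cma1 showed neither order. Further pairs were computed, and not all are given.

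**Figure D3:**
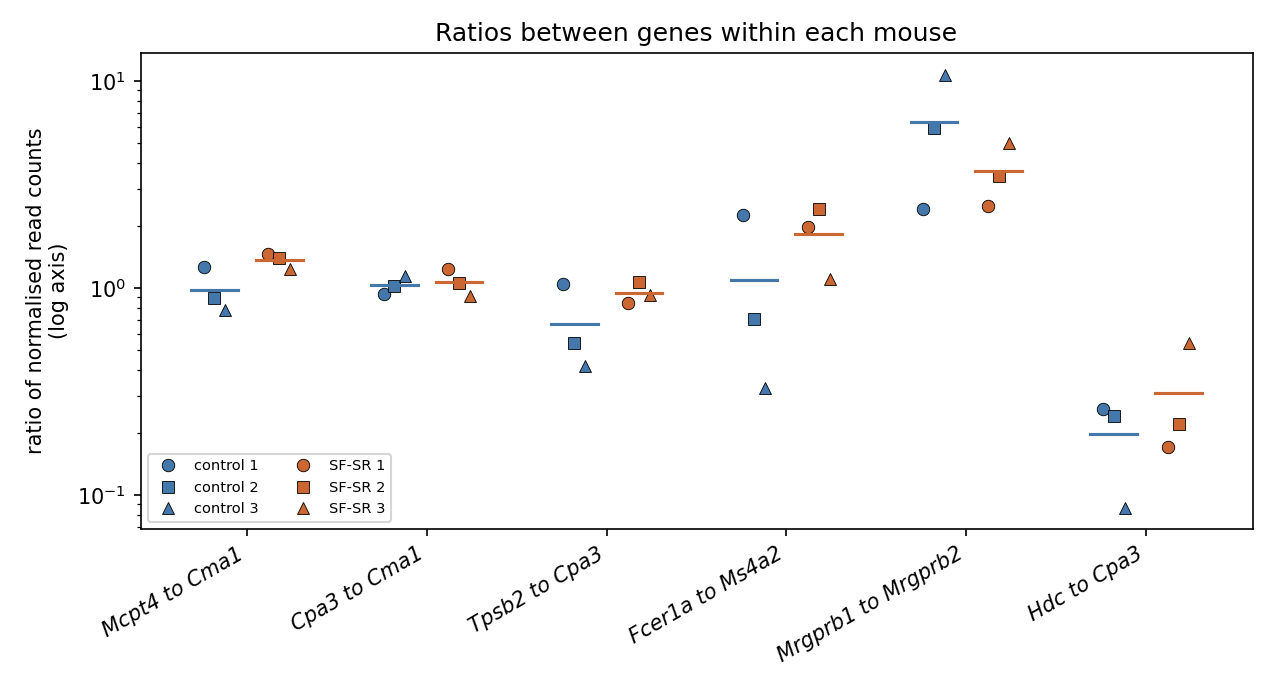
Ratios of normalised read counts (log axis) between pairs of the genes within each mouse, with controls in blue and SF-SR mice in orange; marker shapes give the mouse number and bars the group mean. Controls 2 and 3 have the lowest Mcpt4 to Cma1, Tpsb2 to Cpa3 and Fcer1a to Ms4a2 ratios, and Cpa3 to Cma1 lies between 0.915 and 1.24; with trends removed, which is not drawn, Cpa3 to Cma1 spans 0.844 to 1.38 with controls 2 and 3 lowest, and control 2 has a Tpsb2 to Cpa3 ratio of 0.784, among the SF-SR mice.

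Out of each library's recovered reads, the 5 proteases together took, in parts per 1000000, 129, 121 and 95.3 in SF-SR 1 to 3 and 164, 94.8 and 119 in control 1 to 3. Control 1 had the largest share and control 2 the smallest, so the groups overlapped. The median deviation of the 10 genes from their own mean over the 6 mice was 0.10, -0.36 and -0.26 on the log2 scale in SF-SR 1 to 3 and 0.52, -0.11 and 0.08 in control 1 to 3. With trends removed it was 0.14, -0.38 and -0.26 against 0.45, -0.24 and 0.45, so control 3 then stood level with control 1. Before that removal, 8 of the 10 genes were above their mean in control 1, and in SF-SR 3 only 1, Hdc.

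The genes whose pattern over the 6 mice was most like the mean of the 10 were found by Pearson's r of log2(value + 1), among 16148 other genes with a mean of at least 10, as a description. Znhit3 was first, with r = 0.983, followed by Ptpmt1, Sdhb, Mpc2, Klra8, 1700123M08Rik and Ppa1, all with r of at least 0.95, and then D830050J10Rik, Mpc1 and Rtn4 down to 0.934. None of these is on the mast cell lists used here. Sdhb encodes a subunit of succinate dehydrogenase, and Mpc1 and Mpc2 the mitochondrial pyruvate carrier. Of the mast cell genes outside the 10 that were looked up, Il1rl1 was highest, at place 875 in that order, with r = 0.576. Kit stood at 2746, with r = 0.333. Srgn, Fcer1g, Hpgds and Gata2 had r of -0.040, -0.112, -0.120 and -0.361, and the rest had r above 0. All r values rest on 6 libraries and on the same mice.

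Genes of mast cell growth and identity were taken from a list of 12, all tested, of which 5 were higher and 7 lower and 0 passed limma's threshold. At an unadjusted p under 0.05, 2 were lower, Mitf and Il1rl1, and none was higher. Over all genes tested 5.39% had such a p in either direction, a share that applies to the later lists too. Kitl, which encodes stem cell factor, had 3302, 2357 and 3803 normalised counts in SF-SR 1 to 3 and 3577, 4827 and 5626 in control 1 to 3, a log2 difference of -0.57 (SE 0.28), and of -0.046 with trends removed. Kit, its receptor, had 789, 1456 and 2861 against 2654, 1475 and 2011, a difference of -0.42 (SE 0.43) that turned to 0.037 without SF-SR 1. Kit is also made by mammary epithelium and melanocytes, and Kit to Cpa3 ratios ran from 1.24 to 7.92, so Kit did not follow the proteases.

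The genes past an unadjusted p of 0.05 on these lists are named after their values were seen. Mitf, a transcription factor needed for mast cell development, had 398, 243 and 387 counts in SF-SR 1 to 3 and 426, 683 and 1003 in control 1 to 3. SF-SR mice lay below controls, SF-SR 1 by a narrow margin, and the log2 difference was -0.98 (SE 0.36, limma adjusted p = 0.697). It was -0.66 with trends removed and -0.35 with controls 2 and 3 left out. Mitf passed in limma-voom with quality weights, at -1.34 (adjusted p = 0.0455), where 6.34% of genes were called. Il1rl1, which encodes the IL-33 receptor ST2, had 164, 170 and 173 against 239, 253 and 329. Its SF-SR values lay close together and below every control, with a difference of -0.68 (SE 0.29, limma adjusted p = 0.697), and of -0.33 with trends removed. ST2 is also made by regulatory T cells and stromal cells. Gata2 is named because its groups did not overlap, also after its values were seen. This factor of mast cell and endothelial genes had 305, 257 and 265 against 208, 171 and 205, with every SF-SR mouse above every control and a log2 difference of 0.50 (SE 0.28, limma adjusted p = 0.697, unadjusted p = 0.107). It was 0.14 with trends removed. Of all genes tested, 5.02% had every SF-SR mouse above every control and 3.58% had every one below.

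Granule and mediator genes were a list of 16, of which 8 were higher and 8 lower and 0 passed. At an unadjusted p under 0.05 there was 1 of the 16, beside 5.39% of all genes tested. This was Slc18a2, which encodes the vesicular monoamine transporter that loads histamine and serotonin into granules. It had 48.7, 57.6 and 81.3 normalised counts in SF-SR 1 to 3 and 148, 168 and 150 in control 1 to 3. The groups were far apart for their spread, at 62.5 ± 16.8 and 156 ± 11.1 (SD, n = 3 each), and control 1 lay with the other controls. The log2 difference was -1.33 (SE 0.38, unadjusted p = 0.00617), which did not pass over all genes (limma adjusted p = 0.697). It was -1.19 with trends removed and between -1.53 and -1.12 in every alternative run. The gene passed in limma-voom with quality weights (adjusted p = 0.0488), where 6.34% of genes were called. Slc18a2 is also made by monoamine neurons.

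The most abundant genes of that list were Srgn and Hnmt. Srgn, the core protein of serglycin, had 1644, 1412 and 787 counts in SF-SR 1 to 3 and 1085, 3167 and 2148 in control 1 to 3, a log2 difference of -0.67 (SE 0.41), and is made by most leukocytes. Hnmt, which inactivates histamine by methylation, had 884, 360 and 654 against 777, 570 and 654, a difference of -0.16 (SE 0.34). Both overlapped between the groups. Among mast cell proteases outside the 10, a list of 6, Mcpt1 and Mcpt9 matched no identifier and Mcpt8 fell below the filter. Of the 3 tested, 2 were higher and 1 lower, and 0 passed by limma. The lower was Mcpt2, at the few reads given above, with an unadjusted p under 0.05.

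Genes of signalling from the IgE receptor were a list of 18, of which 7 were higher and 11 lower and 0 passed, also at an unadjusted p under 0.05. The most abundant were Plcg1, a phospholipase that releases calcium, with a log2 difference of 0.11 (SE 0.21), and Stim1, a calcium sensor, with 0.12 (SE 0.21). Fcer1g and Syk, nearest to the receptor, are named outside the rule, after their values were seen. Fcer1g, the gamma chain that Fc epsilon RI shares with other Fc receptors, had 864, 457 and 257 counts in SF-SR 1 to 3 and 414, 225 and 111 in control 1 to 3, a difference of 1.09 (SE 0.54). Syk, the kinase recruited by these chains, had 536, 1635 and 474 against 466, 2870 and 1528. Syk was high in SF-SR 2 and controls 2 and 3, the libraries high in B cell markers, and B cells also make it. The part of B cells in this list was not tested.

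**Figure D4:**
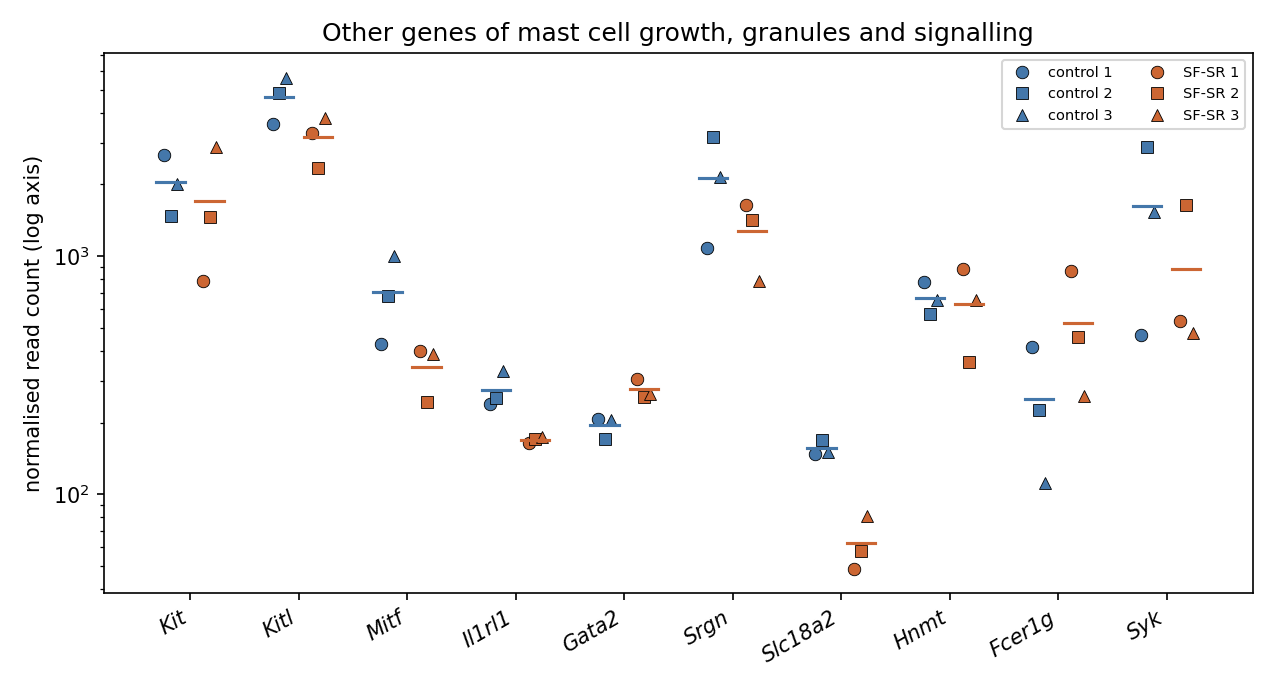
Normalised read counts (log axis) of 10 further genes of mast cell growth, granules and signalling in each mouse, with controls in blue and SF-SR mice in orange; marker shapes give the mouse number and bars the group mean. Slc18a2, Il1rl1 and Mitf are lower and Gata2 higher in every SF-SR mouse than in every control, while Kit and Syk overlap. Slc18a2 is at 48.7 to 81.3 against 148 to 168. Of all genes tested, 3.58% were lower and 5.02% higher in this way.

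Receptors for histamine and other mediators were a list of 8, of which 7 were tested, 4 of them higher and 3 lower, and 0 passed by limma, also at an unadjusted p under 0.05. Ptger3, a prostaglandin E2 receptor that adipocytes also make, had 614, 386 and 990 counts in SF-SR 1 to 3 and 718, 649 and 1453 in control 1 to 3. F2rl1, the receptor cleaved by tryptase, had 96.4, 187 and 114 against 158, 102 and 99.1. Neither separated the groups.

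Basophils, which share Fc epsilon RI and histamine with mast cells, had few reads. Mcpt8, a protease that defines them, had 0 reads in all SF-SR mice and in control 3, and 1 and 4 in controls 1 and 2. Prss34 had at most 13.5 normalised counts and Cd200r3 at most 16.7. The summed level of 6 basophil markers was 32.1 to 51.5 in SF-SR mice and 36.8 to 61.8 in controls, and its largest part was Il4, which mast cells and T cells make as well. Of 8 eosinophil markers 6 were in the table, and Epx, the eosinophil peroxidase that defines them, had reads in SF-SR 2 alone. The 6 summed to 120 to 558 normalised counts in SF-SR mice and 215 to 239 in controls. The largest part was Ear2, at 112 to 523 and 114 to 227. Macrophage markers summed to 8594 to 25658 in SF-SR mice and 13775 to 24389 in controls.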

How the data were processed

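The deposited table holds 1 signal value per gene and mouse, read counts divided by a size factor per library, as the values themselves show. Scaling each library by its lowest nonzero value returned whole reads, within 0.02, for 100% of values. The submitters' processing notes name CASAVA, HISAT2 2.0.5, featureCounts 1.5.0-p3 and build mm8, with no roles. The reference here, GENCODE M21 and RefSeq GRCm38.p6, is another build, so gene coordinates are not given and promoter coordinates are RefSeq's. Symbols were matched by identifier, with 33 unmatched.

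limma 3.58.1 (R 4.3.3) with an intensity trend was run on log2(value + 1) for genes with a mean of at least 1, two-sided, with Benjamini-Hochberg adjustment. This scale understates changes of low genes. edgeR 4.0.16 and DESeq2 1.42.0 on recovered reads, other filters, pseudocounts and scalings, the replicate number, a B cell score and left-out mice were alternatives, and the fits were tested on simulated data. GC content and length came from the longest GENCODE transcript, with splines of 4 degrees of freedom. Counting used no stated strand.

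The 10 genes and the lists were chosen with earlier results of these data known. All 10 genes, the 2 most abundant genes of a pathway list, and the 10 genes most like the members were named by rule.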

Additional observations from a re-analysis of the deposited data

How the results depend on the processing

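Of the 21 alternatives, the count of all genes called was 0 in all but 3: 1023 by limma-voom with quality weights, 844 without control 1, and 39 with control 1 left out and trends removed, so leaving out 1 mouse in turn gave 0 to 844. Of the 10 genes, 1 (Mrgprb1) was called by limma-voom with quality weights, at -1.34, and 0 in every other alternative, leave-one-out included. The median over the 10 was between -0.63 and -0.26. With library totals as scaling the median of all genes was 0.14 and that of the 10 was -0.33.

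With the replicate block, 0 genes were called. Same-numbered mice had deviations correlated at 0.18, 0.39 and 0.04, and other pairs of mice at -0.36 to 0.21. Not every mouse correlated best with its own number, as SF-SR 3 was closest to control 1. Whether the numbers pair the mice is therefore not known. The block with trends removed also gave 0.

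Cpa3, Cma1, Tpsab1, Ms4a2 and Mrgprb1 were lower in all alternatives. The others changed sign in some, and the cause was not tested. Mcpt4 was -0.027 by edgeR, -0.042 by DESeq2, -0.17 with the B cell score, -0.23 with trends removed, with or without the replicate block, and -0.029 with control 1 left out and trends removed. Tpsb2 was -0.037 with the B cell score, -0.39 with trends removed, with or without the block, and -0.20 with control 1 left out and trends removed. Hdc was -0.063 with the B cell score. With 1 mouse left out in turn, Mcpt4 ranged from -0.21 to 0.33, Tpsb2 from -0.11 to 0.58, Fcer1a from -0.034 to 0.73 and Hdc from -0.19 to 0.51. Mrgprb2 was 0.19 with control 1 left out and trends removed. With controls 2 and 3 left out, Mcpt4, Tpsb2, Fcer1a and Hdc were -0.62, -0.68, -0.65 and -0.47, and with SF-SR 2 left out as well -0.57, -0.70, -0.62 and -0.24. The settings that left out several mice, or control 1 with trends removed, were chosen after seeing the data.

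Ms4a2, Fcer1a, Mrgprb2 and Tpsab1 had 5 to 61 reads per library, so counting error alone limits their differences.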
